A study of Mus musculus with 6 samples.

Results

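The nuclear genes of the mitochondrial respiratory chain were examined in liver tumors with and without hepatocyte Prmt3, the gene of a protein arginine methyltransferase. Members were the rows of the expression table whose symbol begins with Nduf followed by a, b, c, s or v, with Uqcr, with Cox followed by 4 to 8 and a, b or c, or with Atp5, together with Sdha, Sdhb, Sdhc and Sdhd. This name pattern matched 94 of the 34745 genes listed: 79 subunits, 9 assembly factors, 4 pseudogenes and 2 other genes. RNA-seq had been done on 3 tumors of Prmt3 f/f mice, which carry a floxed Prmt3 without Cre and are labelled WT (replicates 7, 66 and 71), and on 3 tumors of Prmt3 LKO mice, labelled Prmt3-KO (replicates 92, 93 and 94), with 1 library for each tumor. In Prmt3 LKO mice an Alb-Cre transgene, driven by the albumin promoter, removes the floxed segment of Prmt3 from hepatocytes. Which other cells of the tumor keep the gene was not measured. Both groups were male mice that received diethylnitrosamine (DEN) at 25 mg/kg by intraperitoneal injection at 2 weeks of age and then 10% carbon tetrachloride (CCl4) in oil at 0.5 ml/kg from 6 weeks, repeatedly each week, and the tumors were taken at 26 weeks. The labels do not say whether any of the 3 tumors of a group came from the same mouse, so p-values measure the spread between these tumors.

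The respiratory chain passes electrons from NADH and succinate to oxygen through complexes I to IV and pumps protons across the inner mitochondrial membrane, and complex V, the ATP synthase, uses the proton gradient to make ATP. Most of its subunits are encoded in the nucleus and imported, and a small set is encoded in mitochondrial DNA. In the liver the chain supports urea synthesis and gluconeogenesis, and tumors often shift between it and glycolysis. The wider study concerned PRMT3 and the kinase PDHK1, a mitochondrial enzyme that inactivates pyruvate dehydrogenase and so limits the formation of acetyl-CoA from pyruvate.

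Of the 94 members, 85 passed the filter on low counts and were tested. They comprised 73 subunits, with 36 of 36 of complex I, 4 of 4 of complex II, 8 of 8 of complex III, 10 of 16 of complex IV and 15 of 15 of complex V. They further comprised the 9 assembly factors, the 2 other genes and 1 pseudogene. Every tested member had at least 18 counts in every tumor. Levels are given as CPM, counts scaled to a common library size by the TMM method. Levels of different genes are compared only as FPKM, which also divides by a length for each gene. This length, implied by the deposited counts and FPKM, often differed from that of all exons of the gene in GENCODE M21. It was 1.995 times the exon length for Atp5g1, 1.633 times for Atp5b, equal for Ndufa8 and 0.3109 times for Ndufa6. Comparisons between genes depend on it. Differences are log2 fold changes of Prmt3 LKO over Prmt3 f/f tumors, from the quasi-likelihood test of edgeR fitted over all 13892 genes that passed the filter.

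None of the 85 members was called when an adjusted p under 0.05 was required together with a 2-fold difference in either direction, and the share called among all genes tested was 0%. DESeq2, edgeR's exact test and limma-voom called 0 members as well, where they called 0.375%, 0.288% and 0% of all genes tested. The smallest adjusted p of a member was 0.606 (edgeR's quasi-likelihood test, Benjamini-Hochberg adjustment). At an unadjusted p under 0.05, 14 members were higher in Prmt3 LKO tumors and 0 were lower. The 14 are 16.5% of the members tested, where 2.2% of all genes tested were higher at this limit and 4.37% were lower. The fitted log2 fold change was above 0 in 78 of the 85 members and in 50.1% of all genes tested. Its median was 0.20 over the members, with quartiles at 0.10 and 0.36, a fold of 1.15, against 0.00 over all genes tested. In 19 members, or 22.4%, every Prmt3 LKO tumor lay above every Prmt3 f/f tumor, against 5.56% of all genes tested. In 1 member, Atp5sl, every Prmt3 LKO tumor lay below, against 6.6% of all genes tested.

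**Figure D1:**
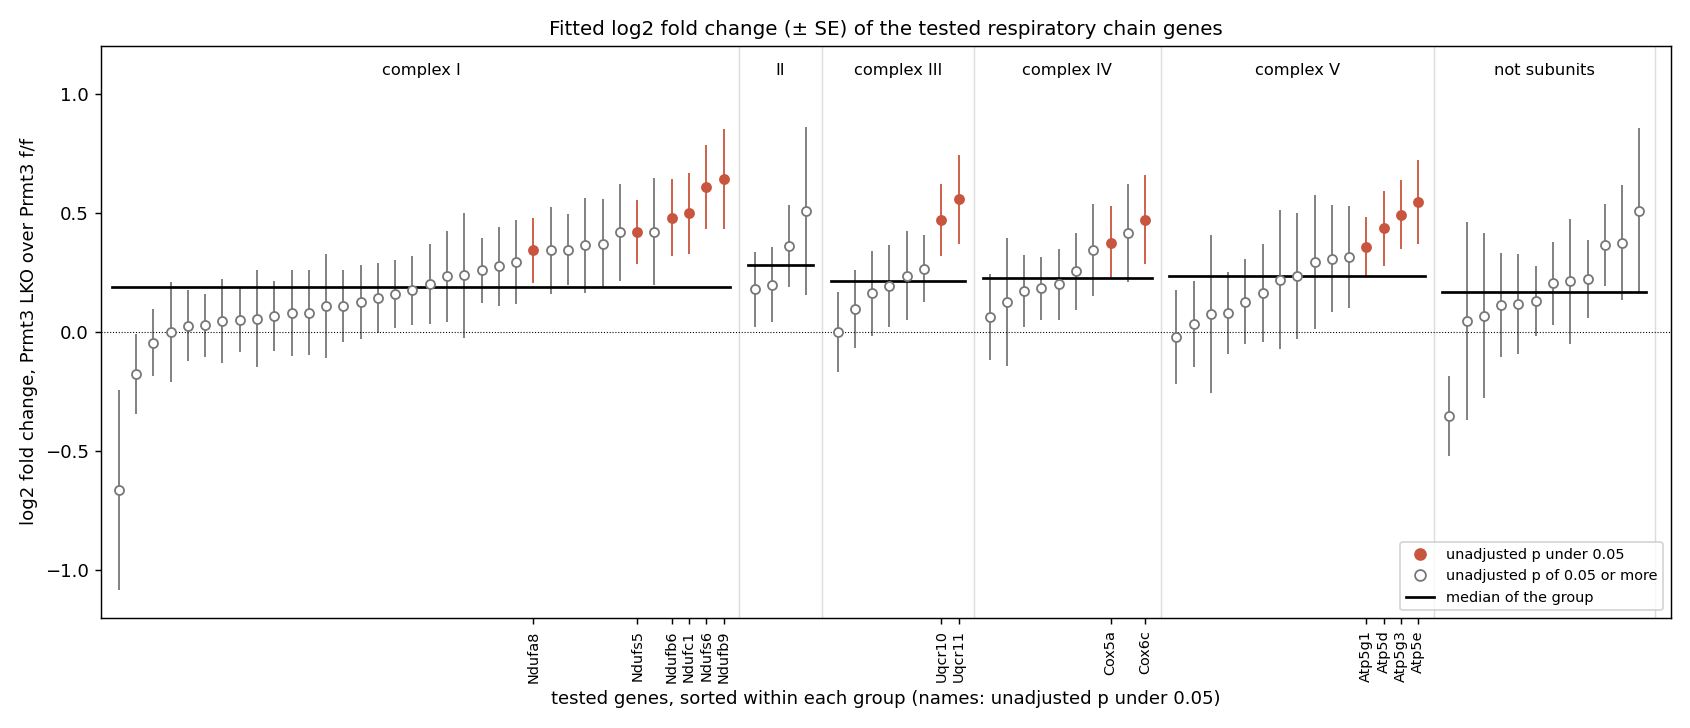
Each point is the fitted log2 fold change of a tested member, Prmt3 LKO over Prmt3 f/f tumors (3 tumors each), with its standard error, grouped by complex and sorted, and the black lines are group medians. The 14 filled points, which carry the gene names, have an unadjusted p under 0.05 and lie above 0, and 78 of 85 points lie above 0.

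The count of 14 depended on single tumors. It was 3 without Prmt3 f/f replicate 66, namely Atp5e, Atp5g1 and Ndufs6, and 4 without Prmt3 LKO replicate 94, namely Atp5e, Atp5g3, Ndufs5 and Ndufs6. It was 8 without Prmt3 LKO replicate 92, and 23 without Prmt3 f/f replicate 7, of which 11 were among the 14. Without Prmt3 f/f replicate 66, 3.49% of the members were higher at this limit, against 1.28% of all genes tested. The median of the members stayed above 0 with each tumor left out, between 0.14 and 0.27.

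The libraries held between 18440244 and 27976598 counts, and a count of 3, taken as the floor, corresponds to 0.107 to 0.163 CPM, which covers counting error only. Prmt3 itself ranged from 6.60 to 10.2 CPM in Prmt3 f/f and from 2.03 to 3.82 CPM in Prmt3 LKO tumors, so the groups did not overlap. The 14 hepatocyte markers, among them Alb and Apoa1, summed to between 163476 and 232579 CPM in Prmt3 f/f tumors and to between 188792 and 197153 CPM in Prmt3 LKO tumors, and 0 of them had an unadjusted p under 0.05. Most of each sum was Alb, at 108202 to 164722 CPM in Prmt3 f/f and 119223 to 130162 CPM in Prmt3 LKO tumors. Some markers varied more, such as Cyp2e1, at 166 CPM in Prmt3 f/f replicate 7 and 244 CPM in Prmt3 LKO replicate 93. In the other tumors Cyp2e1 stood at 1057 to 1330 CPM. The 12 leukocyte markers summed to 690.2 to 1221 CPM in Prmt3 f/f tumors and 415 to 561 CPM in Prmt3 LKO tumors. Of these 12, 9 were lower at an unadjusted p under 0.05, against 4.37% of all genes tested. The 8 stroma markers had a median log2 fold change of -0.33 with 0 below this limit, and their sums overlapped between the groups. The 5 cholangiocyte markers summed to 4103 CPM in Prmt3 f/f replicate 7, through Spp1, and to 206 to 1016 CPM in the other tumors, with the groups overlapping. The 12 kidney markers, a list added later than the others, summed to 3.02 to 4.34 CPM in Prmt3 f/f tumors and to 9.40 to 13.2 CPM in Prmt3 LKO tumors. Only 3 of the 12 passed the filter on low counts. Most of each sum was Kap, at 2.39 to 3.22 CPM and 5.73 to 8.21 CPM. In bulk tumors a larger share of cells of a type and more RNA per cell cannot be told apart, and the part of these markers in the results on the members was not tested.

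Over the 73 tested subunits, the tumors of the groups overlapped. Each level was set against the Prmt3 f/f mean of its gene, on a log2 scale, and the median over subunits of replicates 7, 66 and 71 came to 0.21, -0.13 and 0.00. It was 0.27, 0.10 and 0.30 in Prmt3 LKO replicates 92, 93 and 94. Prmt3 f/f replicate 7 thus lay above Prmt3 LKO replicate 93, while the other two Prmt3 f/f tumors lay below all Prmt3 LKO tumors. Prmt3 LKO replicate 94 held the highest level of the 6 tumors in 33 of the 73 subunits, Prmt3 LKO replicate 92 in 20 and Prmt3 f/f replicate 7 in 14. Prmt3 f/f replicate 66 held the lowest level in 42 of the 73 and the highest in 0. In each of the 5 complexes Prmt3 f/f replicate 7 likewise lay above Prmt3 LKO replicate 93.

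**Figure D2:**
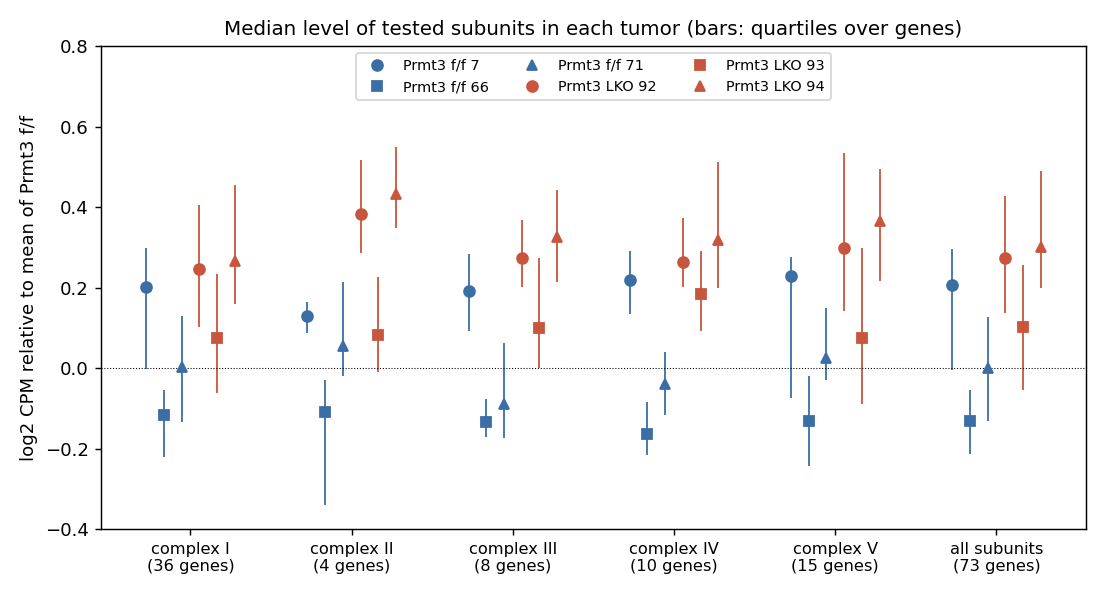
Each point is the median log2 CPM of the tested subunits of a complex in 1 tumor, set against the Prmt3 f/f mean of each gene, and bars span the quartiles over genes. Over all 73 subunits the Prmt3 f/f tumors stand at 0.21, -0.13 and 0.00 and the Prmt3 LKO tumors at 0.27, 0.10 and 0.30, so that the groups overlap.

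A subunit varied by a median of 1.505 times between its highest and lowest tumor, from 1.17 times to 3.00 times. The coefficient of variation within a group had a median of 16.2% in Prmt3 f/f tumors and 11.1% in Prmt3 LKO tumors, and it was larger in Prmt3 f/f tumors for 55 of the 73 subunits. The subunits were abundant transcripts, with 68 of 73 at a mean of 10 CPM or more. Among tested genes with a mean between 30 and 100 CPM, the median log2 fold change was 0.04 over all genes and 0.22 over the 40 subunits in that range. Among genes with an implied length of up to 1 kb it was 0.01 over all genes and 0.34 over the 15 subunits, and in the 4 bins of longer genes the subunit medians lay between 0.15 and 0.20.

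The promoters of the higher members were read for 3 motifs that regulators of respiratory genes are known to bind: the core of the NRF1 site (GCATGCGC, on the other strand GCGCATGC), of the ETS site bound by GABPA (CCGGAAGT, ACTTCCGG) and of the YY1 site (AAGATGGC, GCCATCTT). RefSeq promoters of build GRCm38.p6, from 250 bases before to 50 bases after the start, were matched for 62 of the 73 tested subunits, with 67 promoters. The NRF1 letters were found in 14.9% of these 67 promoters and in 2.71% of all 32851 promoters. The share was 7.46% against 3.89% for the ETS letters and 13.4% against 2.75% for the YY1 letters. The 32851 were all promoters listed and not only those of genes tested, so these shares are not matched for expression. Of the 14 members higher at an unadjusted p under 0.05, 12 were matched, with 13 promoters, and 4 of these members held a motif. Among the 13 promoters, 2 (15.4%) held the NRF1 letters, 1 (7.69%) the ETS letters and 2 (15.4%) the YY1 letters. These 13 are part of the 67 and are too few for a comparison of the shares. The promoters of the 4 members are shown, 5′ to 3′ on the strand of the gene, with the motif letters in capitals. Positions near the start can thus be seen. The motifs do not overlap each other, and a match of letters does not show binding.
Ndufs6 promoter (chr13:73328433-73328732, minus strand): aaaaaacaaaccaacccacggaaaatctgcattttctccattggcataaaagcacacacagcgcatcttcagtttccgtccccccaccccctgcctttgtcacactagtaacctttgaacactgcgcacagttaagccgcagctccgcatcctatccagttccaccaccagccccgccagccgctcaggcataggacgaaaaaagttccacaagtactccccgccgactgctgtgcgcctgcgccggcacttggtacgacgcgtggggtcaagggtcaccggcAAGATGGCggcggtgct
Ndufc1 promoter (chr3:51408906-51409205, minus strand): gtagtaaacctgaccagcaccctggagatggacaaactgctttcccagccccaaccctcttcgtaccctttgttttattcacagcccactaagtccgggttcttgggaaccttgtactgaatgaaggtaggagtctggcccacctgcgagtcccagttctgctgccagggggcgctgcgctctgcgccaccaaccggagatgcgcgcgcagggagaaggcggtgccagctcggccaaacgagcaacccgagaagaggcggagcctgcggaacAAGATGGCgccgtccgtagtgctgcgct
Ndufa8 promoter (chr2:36049289-36049588, minus strand): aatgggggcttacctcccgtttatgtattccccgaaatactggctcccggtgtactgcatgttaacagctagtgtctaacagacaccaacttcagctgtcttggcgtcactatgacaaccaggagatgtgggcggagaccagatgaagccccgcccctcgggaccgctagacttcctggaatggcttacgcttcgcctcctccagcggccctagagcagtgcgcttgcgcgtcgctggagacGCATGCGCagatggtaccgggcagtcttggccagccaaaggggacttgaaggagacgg
Uqcr11 promoter (chr10:80406772-80407071, minus strand): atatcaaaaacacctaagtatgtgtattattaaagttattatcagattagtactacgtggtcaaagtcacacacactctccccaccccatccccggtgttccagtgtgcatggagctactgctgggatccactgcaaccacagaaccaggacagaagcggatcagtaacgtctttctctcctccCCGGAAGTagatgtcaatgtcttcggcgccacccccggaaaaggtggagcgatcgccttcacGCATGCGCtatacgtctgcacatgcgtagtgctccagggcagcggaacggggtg
The YY1 letters began at base 34 after the start in Ndufs6 and at base 23 in Ndufc1, and the NRF1 letters at base -8 in Ndufa8 and -4 in Uqcr11. Uqcr11 was the 1 of these 4 with the ETS letters, at base -66.

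Complex I, the NADH dehydrogenase, has the largest set of nuclear subunits. Of its 36 subunits, 6 (16.7%) were higher in Prmt3 LKO tumors at an unadjusted p under 0.05, against 2.2% of all genes tested. The number lower was 0, and the median log2 fold change was 0.19. All 6 were accessory subunits, which surround the catalytic core and stabilize it. They were Ndufs6, Ndufs5, Ndufb9, Ndufb6, Ndufc1 and Ndufa8. The 7 nuclear core subunits, which carry the flavin, the iron-sulfur clusters and the quinone site, had a median of 0.11 with 0 of 7 at this limit, and the 29 accessory subunits had a median of 0.24. This division was made after the values were seen, and the difference between the sets was not tested.

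Ndufs6, a small accessory subunit of the peripheral arm, had the smallest p of all members. In the order of replicates given above, Prmt3 f/f tumors had 24.3, 19.6 and 17.8 CPM and Prmt3 LKO tumors 35.4, 26.9 and 31.8 CPM, and the same order is kept for every gene. The lowest Prmt3 LKO tumor lay above the highest Prmt3 f/f tumor, and the log2 fold change was 0.61 (SE 0.18, adjusted p = 0.606, edgeR's quasi-likelihood test). For each of the 14 genes the two-sided exact permutation p was 0.1, and 3 tumors against 3 cannot give a smaller one. The exons of Ndufs6 overlap Mrpl36 on the opposite strand, and the strand setting of the counting is not given in the sources used here.

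Ndufb9, an accessory subunit of the membrane arm, had the largest log2 fold change among the members, 0.64 (SE 0.21, adjusted p = 0.648), and the highest mean FPKM in complex I, 115. It had 59.9, 54.1 and 62.4 CPM in Prmt3 f/f tumors and 87.8, 68.8 and 119 CPM in Prmt3 LKO tumors. Prmt3 LKO replicate 94 stood apart from the other two, and without it the log2 fold change was 0.41. A predicted gene on the same strand, Gm49356, shares 23.4% of the 50-base words of its transcript.

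Ndufs5, which faces the intermembrane space, was close among replicates, at 13.8, 12.3 and 13.3 CPM in Prmt3 f/f tumors and 17.5, 18.2 and 16.9 CPM in Prmt3 LKO tumors, with a fitted log2 fold change of 0.42 (SE 0.14, adjusted p = 0.648). Its transcript shares 31.1% of its 50-base words with BC002163. Ndufa8, which faces the same space, stood at 55.9, 51.3 and 64.3 CPM against 72.8, 73.3 and 71.2 CPM, with a log2 fold change of 0.34. In both Ndufs5 and Ndufa8 the 3 Prmt3 LKO tumors differed little from each other and lay above the Prmt3 f/f tumors. Ndufb6, of the membrane arm, stood at 24.7, 18.1 and 21.8 CPM against 31.4, 27.2 and 31.5 CPM, with a log2 fold change of 0.48. Its transcript shares 34.1% of its 50-base words with Smim27 on the opposite strand. Ndufc1, a small membrane subunit, stood at 10.2, 8.44 and 7.63 CPM against 11.7, 12.2 and 13.2 CPM, with a log2 fold change of 0.50.

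A further 2 accessory subunits of complex I did not overlap between the groups but had an unadjusted p of 0.05 or more, Ndufb8 (adjusted p = 0.761) and Ndufb7 (adjusted p = 0.810), named after their values were seen. The other 28 subunits overlapped. Among the core subunits Ndufv1, which binds NADH and the flavin, had a log2 fold change of 0.34 (SE 0.18, adjusted p = 0.809). Ndufv2, its partner, had a log2 fold change of -0.18 (SE 0.17, adjusted p = 0.934). The lowest log2 fold change, -0.67 (SE 0.42, adjusted p = 0.870), belonged to Ndufb4, at 2.95, 2.33 and 1.16 CPM in Prmt3 f/f tumors and 1.03, 1.44 and 1.56 CPM in Prmt3 LKO tumors. The groups overlapped, and 37.0% of the 50-base words of its transcript also occur in other genes, most in Ndufb4c, so its low count is uncertain.

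Complex II, succinate dehydrogenase, links the tricarboxylic acid cycle to the chain and has only nuclear subunits. All 4 had a log2 fold change above 0, with a median of 0.28, and 0 of 4 had an unadjusted p under 0.05. Sdha, the flavoprotein that oxidizes succinate, stood at 271, 139 and 395 CPM in Prmt3 f/f tumors and 408, 318 and 418 CPM in Prmt3 LKO tumors. Replicate 66 was low and replicate 71 lay within the range of the Prmt3 LKO tumors, and the log2 fold change was 0.51 (SE 0.35, adjusted p = 0.892). Without replicate 66 it was 0.20. Sdhb, the iron-sulfur subunit, stood at 107, 90.8 and 77.7 CPM against 124, 103 and 127 CPM, with a log2 fold change of 0.36 (SE 0.17, adjusted p = 0.775). The membrane anchors Sdhc and Sdhd had log2 fold changes of 0.18 (SE 0.16) and 0.20 (SE 0.16). In each of the 4 genes Prmt3 LKO replicate 93 lay within the range of the Prmt3 f/f tumors. By mean FPKM, Sdhd was the highest of the complex at 116, above Sdha at 59.0, Sdhb at 40.2 and Sdhc at 27.8.

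Complex III, the cytochrome bc1 complex, moves electrons from ubiquinol to cytochrome c. Of its 8 subunits in the pattern, 2 (25%) were higher at an unadjusted p under 0.05, against 2.2% of all genes tested. In 3 (37.5%) every Prmt3 LKO tumor lay above every Prmt3 f/f tumor, against 5.56% of all genes tested. The median log2 fold change was 0.21. Uqcr10, one of its smallest subunits, stood at 50.5, 41.7 and 38.6 CPM in Prmt3 f/f tumors and 59.3, 56.4 and 65.6 CPM in Prmt3 LKO tumors, with a fitted log2 fold change of 0.47 (SE 0.15, adjusted p = 0.648). Uqcr11, another small subunit, stood at 41.3, 27.9 and 27.6 CPM against 49.0, 43.4 and 49.7 CPM, with a log2 fold change of 0.56 (SE 0.19, adjusted p = 0.653). In Uqcr11 Prmt3 f/f replicate 7 lay close to Prmt3 LKO replicate 93 and far from the other two Prmt3 f/f tumors. Uqcrq, which also did not overlap, had a log2 fold change of 0.27. The Rieske iron-sulfur protein Uqcrfs1, the member of the complex with the highest mean FPKM at 105, had a log2 fold change of 0.19 (SE 0.17, adjusted p = 0.929). The large structural subunits Uqcrc1 and Uqcrc2 had log2 fold changes of 0.16 (SE 0.18) and -0.00090 (SE 0.17).

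Complex IV, cytochrome c oxidase, has a catalytic core encoded in mitochondrial DNA and a shell of nuclear subunits, several of which exist as liver and tissue isoforms. All 10 tested subunits had a log2 fold change above 0, with a median of 0.23, and 2 were higher at an unadjusted p under 0.05. These 2 are 20% of the tested subunits, against 2.2% of all genes tested. Cox6c stood at 54.5, 40.0 and 46.7 CPM in Prmt3 f/f tumors and 55.6, 60.9 and 79.1 CPM in Prmt3 LKO tumors, with a fitted log2 fold change of 0.47 (SE 0.19, adjusted p = 0.740). The gap between Prmt3 f/f replicate 7 and Prmt3 LKO replicate 92 was narrow. Cox5a stood at 52.5, 47.4 and 59.3 CPM against 71.7, 60.5 and 74.3 CPM, with a log2 fold change of 0.37 (SE 0.15, adjusted p = 0.742). Its transcript shares 32.0% of its 50-base words with other genes, most with Gm26631 on the opposite strand. Cox8a had the highest mean FPKM of all members, 191, ahead of Cox6b1 at 175. This order depends on the implied lengths, such as 0.545 kb for Cox8a and 6.918 kb for Atp5b of complex V. They were 0.8805 and 1.633 times the exon lengths, so the order does not settle which member is most abundant. Ndufa4, named for complex I but a subunit of complex IV, had the lowest log2 fold change of the complex, 0.06 (SE 0.18, adjusted p = 0.988). Cox7c stood at only 2.38 to 3.97 CPM, and 27.9% of the 50-base words of its transcript occur in other genes.

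**Figure D3:**
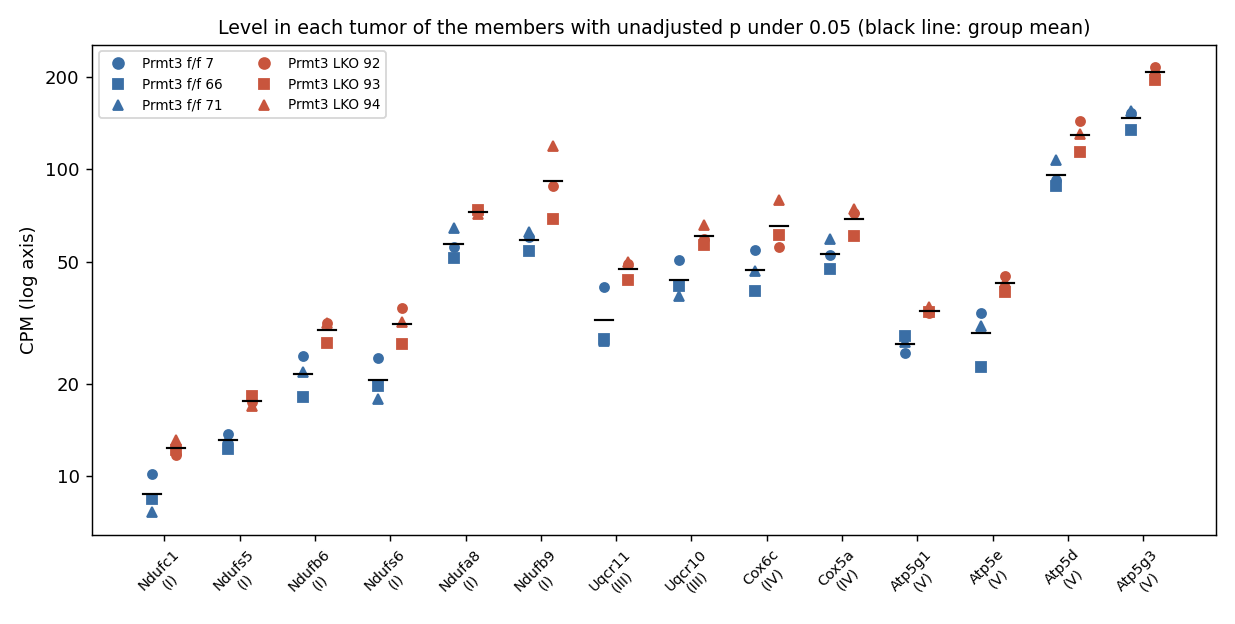
Points are CPM on a log axis in each of the 6 tumors for the 14 members with an unadjusted p under 0.05, with the complex in parentheses and black lines at the group means. In each gene the 3 Prmt3 LKO tumors lie above the 3 Prmt3 f/f tumors, with narrow gaps in Cox6c, between 54.5 and 55.6 CPM, and in Cox5a, between 59.3 and 60.5 CPM.

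Liver forms dominated where complex IV has a tissue isoform. Cox6a1 stood at 90.2 to 118 FPKM, while Cox6a2, the heart and muscle form, had 16, 16 and 2 counts in Prmt3 f/f tumors and 0, 3 and 0 counts in Prmt3 LKO tumors and at most 1.17% of the FPKM of the pair. Cox6a2 was not tested, and its exons overlap Itgad, an integrin gene of leukocytes on the opposite strand. Cox7a1, another heart and muscle form, took 0.440% to 1.95% of the FPKM of its pair with Cox7a2, from 3 to 9 counts, and the groups overlapped. Cox6b2, a testis form, had between 2 and 20 counts and at most 0.168% of its pair. Cox7b2 and Cox8c had 0 counts in all 6 tumors, and 3 counts, the limit that 0 allows, equal 0.107 to 0.163 CPM, and Cox8b had 1 count in 1 tumor. Outside the pattern, the common isoform Cox4i1 differed by 0.06 (SE 0.15), and its hypoxia-linked partner Cox4i2 had between 0 and 6 counts. The striated muscle markers summed to 5.31 CPM in Prmt3 f/f replicate 7 and to 0.343 to 1.17 CPM in the other tumors, and the 5 testis markers were at 0 in every tumor.

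**Figure D4:**
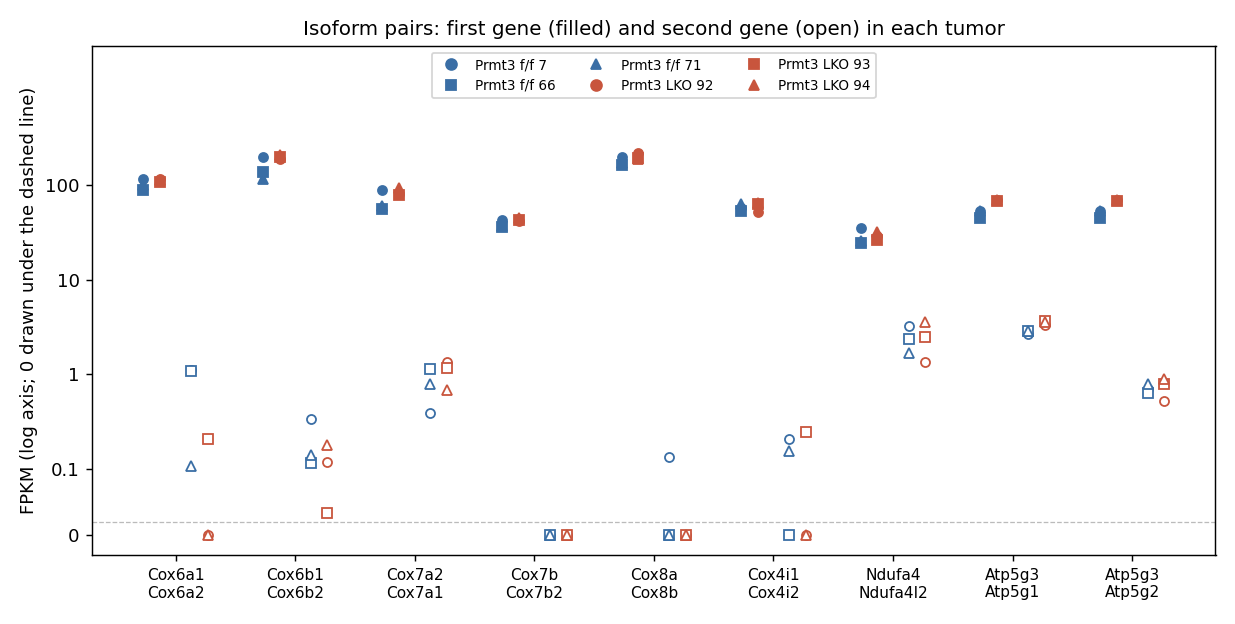
FPKM in each tumor on a log axis for the first gene (filled) and the second gene (open) of 9 isoform pairs, with values of 0 drawn under the dashed line. The first gene lies far above the second in every tumor, and Cox7b2 is at 0 in all 6.

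Ndufa4l2, a paralog of Ndufa4 known as a target of hypoxia signaling, took between 4.45% and 10.0% of the FPKM of the pair. It had 3.00, 2.33 and 1.58 CPM in Prmt3 f/f tumors and 1.37, 2.26 and 3.47 CPM in Prmt3 LKO tumors, with the groups overlapping across the whole range (log2 fold change 0.04, SE 0.41).

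Complex V, the ATP synthase, joins a catalytic F1 head to a proton-driven ring in the membrane. Of its 15 subunits, 4 (26.7%) were higher in Prmt3 LKO tumors at an unadjusted p under 0.05, against 2.2% of all genes tested. The log2 fold change was above 0 in 14 of them, with a median of 0.23 over the 15. Atp5g3, which encodes the c subunit of the rotor ring, stood at 153, 134 and 154 CPM in Prmt3 f/f tumors and at 215, 194 and 210.2 CPM in Prmt3 LKO tumors. The means were 147 ± 11.2 and 207 ± 10.8 CPM (SD, n = 3), and the log2 fold change was 0.49 (SE 0.15, adjusted p = 0.606 by edgeR). None of its 50-base words occurs in another gene. Atp5g1, which encodes an identical mature c subunit, stood at 25.2, 28.6 and 27.4 CPM against 34.1, 34.3 and 35.5 CPM, with a log2 fold change of 0.36 (SE 0.12, adjusted p = 0.667). The third c gene, Atp5g2, was low at 1.14 to 1.91 CPM and differed by 0.07 (SE 0.33). Atp5g3 took between 92.8% and 94.8% of the FPKM of the 3 c genes in every tumor, and Atp5g1 between 4.50% and 5.91%. These shares depend on the implied lengths, 2.931 kb for Atp5g3 and 9.797 kb for Atp5g1. The lengths were 1.344 and 1.995 times those of all exons, so the share of Atp5g1 is uncertain.

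In the F1 head small subunits of the central stalk, Atp5e and Atp5d, were higher at an unadjusted p under 0.05. Atp5e stood at 34.0, 22.7 and 30.9 CPM in Prmt3 f/f tumors and 44.9, 39.9 and 42.9 CPM in Prmt3 LKO tumors, with a log2 fold change of 0.54 (SE 0.17, adjusted p = 0.646). Atp5d stood at 87.8 to 107 CPM in Prmt3 f/f tumors and at 144, 114 and 129.7 CPM in Prmt3 LKO tumors without overlap, with a log2 fold change of 0.43 (SE 0.16, adjusted p = 0.684). Both sit with Atp5c1 in the stalk, yet Atp5c1 had the lowest log2 fold change of the complex, -0.02 (SE 0.20). The alpha and beta subunits Atp5a1 and Atp5b had log2 fold changes of 0.31 (SE 0.22) and 0.16 (SE 0.21), with the groups overlapping. Whether these differences among subunits exceed their errors was not tested. Atp5b, the catalytic subunit, had the highest mean FPKM of the complex, 114. Atp5l, of the membrane part, was counted at only 2.07 to 3.34 CPM, and 84.8% of the 50-base words of its transcript occur in 14 other genes. The shares were 50.3% for Atp5o, 47.9% for Atp5h and 38.7% for Atp5f1, so counts of these genes may be split among copies.

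Among the 9 assembly factors of the pattern, which help to build the complexes, 0 had an unadjusted p under 0.05 and the median log2 fold change was 0.20. Ndufaf4 and Ndufaf5, factors of complex I and 22.2% of the 9, lay above in every Prmt3 LKO tumor, against 5.56% of all genes tested. Their log2 fold changes were 0.37 (adjusted p = 0.774) and 0.37 (adjusted p = 0.878). Atp5sl, which despite its symbol encodes a factor of complex I assembly, lay below in every Prmt3 LKO tumor, against 6.6% of all genes tested. It stood at 18.1, 18.8 and 25.1 CPM in Prmt3 f/f tumors and 16.7, 16.3 and 15.6 CPM in Prmt3 LKO tumors (log2 fold change -0.35, SE 0.17, adjusted p = 0.774). Atp5s, the coupling factor B, ranged from 2.57 to 5.54 CPM with the groups overlapping. The tested pseudogene, Atp5l2-ps, was at 0.914 to 1.76 CPM, and the other 3 pseudogenes had at most 5 counts in any tumor.

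Genes of the pathway outside the name pattern were counted in lists written with earlier results known. Of 40 further assembly factors, 39 were tested, 5 were higher at an unadjusted p under 0.05, 0 were lower and the median log2 fold change was 0.15. The share higher was 12.8%, against 2.2% of all genes tested. The 5 were Sco1 and Cox11, which deliver copper to complex IV, Nubpl and Foxred1, which help to build complex I, and Uqcc2 of complex III, with log2 fold changes of 0.52, 0.39, 0.64, 0.38 and 0.40. Of the 16 genes taken as measures of mitochondrial mass, such as Cs and Vdac1, 15 had a log2 fold change above 0 with a median of 0.15, and 0 passed this limit. The listed nuclear subunits and carriers with other names, which need not be all, had a median of 0.20 over 5 tested genes. Cycs, the electron carrier cytochrome c, was at 0.33 (SE 0.33). It stood at only 2.52 to 5.72 CPM, and 28.5% of the 50-base words of its transcript occur in 76 other genes.

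Of the 13 subunits encoded in mitochondrial DNA, 12 had a log2 fold change below 0. The share above 0 was 7.69%, against 50.1% of all genes tested. The median was -0.16, and Prmt3 f/f replicate 7 had the highest level in 12 of the 13. Only mt-Atp6 and mt-Nd6, 2 of the 13, were lower at an unadjusted p under 0.05, against 4.37% of all genes tested, and 0 were higher. mt-Nd6 stood at 12.8, 2.24 and 8.79 CPM in Prmt3 f/f tumors and 3.31, 2.84 and 2.81 CPM in Prmt3 LKO tumors. The groups overlapped in mt-Nd6, and its exon overlaps mt-Nd5 on the opposite strand. mt-Atp6, a subunit of the proton channel of complex V, stood at 830.1, 3444 and 3623 CPM in Prmt3 f/f tumors and 539, 483 and 646 CPM in Prmt3 LKO tumors (log2 fold change -2.24, SE 0.52, adjusted p = 0.592 by edgeR). Its exon overlaps mt-Atp8 and mt-Co3, and 99.5% of its 50-base words occur in other genes, most in Gm10925. Whether the nuclear and mitochondrial sets differ from each other was not tested.

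**Figure D5:**
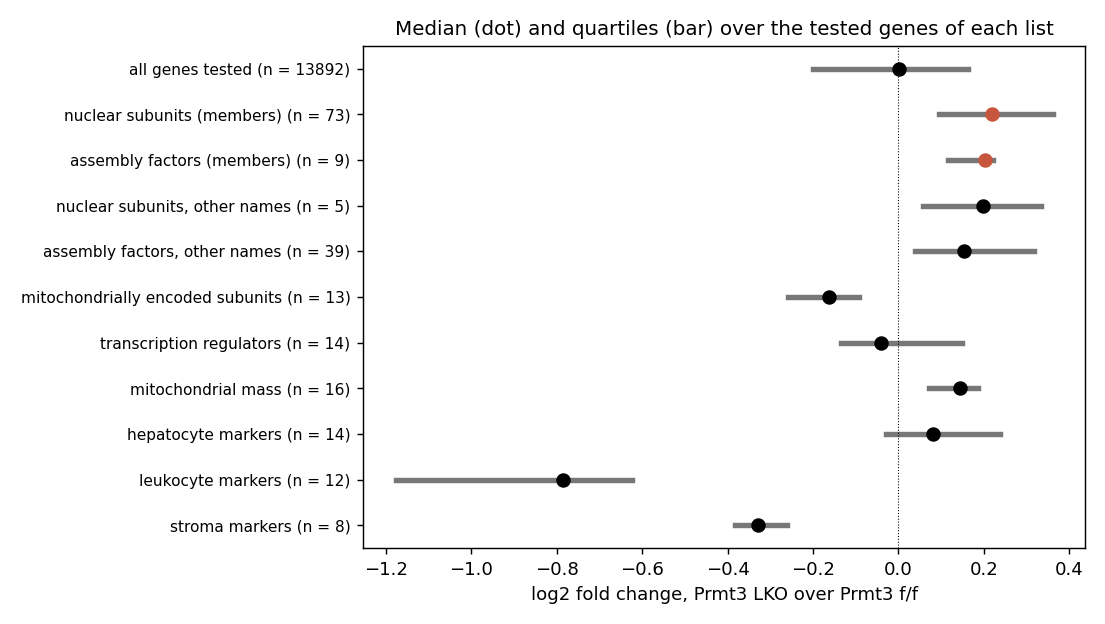
Dots are the median and bars the quartiles of the log2 fold change over the tested genes of each list, with the lists of members in color. The nuclear subunits have a median of 0.22, the mitochondrially encoded subunits of -0.16, the leukocyte markers of -0.79 and all genes tested of 0.00.

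Of 14 tested regulators of respiratory gene transcription, 1 was higher at an unadjusted p under 0.05, Esrra, a nuclear receptor that drives respiratory genes, at 26.5, 25.1 and 30.8 CPM in Prmt3 f/f tumors and 36.5, 33.4 and 36.9 CPM in Prmt3 LKO tumors (log2 fold change 0.38, SE 0.14, adjusted p = 0.684). The median of the list was -0.04. Its coactivator Ppargc1a differed by -0.14 (SE 0.41), the factors Nrf1 and Gabpa by 0.09 (SE 0.20) and -0.08 (SE 0.13), and Tfam, which serves mitochondrial DNA, by 0.17 (SE 0.14). Pdk1, the gene of PDHK1, stood at 45.3, 56.9 and 71.02 CPM against 74.9, 68.1 and 82.6 CPM, with overlapping groups and a log2 fold change of 0.38 (SE 0.19, adjusted p = 0.784).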

How the data were processed

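RNA-seq of 6 mouse liver tumors, 3 of each genotype, was analysed. The authors deposited whole-number counts per gene and FPKM values per gene from total RNA sequenced as paired ends and aligned to GRCm38. The submitters' processing notes name HISAT2 2.0.4, StringTie 1.3.0 and bcl2fastq 2.19, and the counting tool, annotation release and strand setting are not given in the sources used here. Columns of per-sample values left unused numbered 0.

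Samples were grouped by the labels. Where a symbol had several identifiers, the one with the largest total count was kept. Genes were filtered with filterByExpr (minimum count 10, minimum total 15), scaled by TMM and tested with edgeR 4.0.16 in R 4.3.3 (quasi-likelihood, Benjamini-Hochberg adjustment over all 13892 genes, prior count 2 for log2 CPM). All p and adjusted p values are from this test unless an exact permutation test is named. The test was tried on simulated data first. Alternatives were DESeq2 1.42.0, limma-voom 3.58.1, edgeR's exact test, other normalizations and filters, FPKM with 2 pseudocounts, and leaving out each tumor. Shared sequence was counted as 50-base words in the GENCODE M21 transcripts, and the implied length is the one that relates the deposited counts to FPKM.

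The members and lists were chosen with earlier results of these data known, and the kidney list was added later. Named genes were, in each complex, the member with the highest mean FPKM and the subunits with the lowest and highest log2 fold change at a mean of at least 1 CPM, then the isoform pairs, the 12 members with the smallest unadjusted p and any other that did not overlap at an unadjusted p under 0.05, the subunits of complex II, assembly factors of the pattern with an unadjusted p under 0.05, and Prmt3, Pdk1, Cox4i1, Cox4i2, Cycs, Ppargc1a, Nrf1, Gabpa, Esrra and Tfam. Other genes, among them core subunits of complex I, members without overlap but with a larger p, genes with shared sequence, mitochondrially encoded genes and the assembly factors outside the pattern, were named after their values were seen. The floors cover counting error only. Standard errors come from the quasi-likelihood fit, and the SD is the spread between tumors.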

Additional observations from a re-analysis of the deposited data

How the results depend on the processing

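No member was called at an adjusted p under 0.05 under any alternative run, while among all genes tested the number called with a 2-fold difference was 0 in the test used, 52 with DESeq2 and 40 with edgeR's exact test. At an unadjusted p under 0.05 the number of members higher in Prmt3 LKO tumors was 14, and 11 to 15 under the other tools, normalizations and filters, and it ranged from 3 to 23 with single tumors left out. The number lower was 0, and it was 1 with upper-quartile normalization (Atp5sl), 1 without the filter (Cox6a2) and between 0 and 2 with single tumors left out. Atp5e and Ndufs6 were higher in every setting. Log2 fold changes near 0 changed sign: Uqcrc2 was 0.0017 with DESeq2, and Ndufa4l2 was -0.013 from FPKM with a pseudocount of 1 and -0.034 with 0.1. With single tumors left out, the range was -0.093 to 0.095 for Uqcrc2, -0.15 to 0.10 for Atp5c1, -0.021 to 0.22 for Ndufa4, -0.33 to 0.32 for Ndufa4l2, -0.10 to 0.25 for Atp5g2, -0.0032 to 0.12 for Cox4i1, -0.031 to 0.22 for Nrf1 and -0.45 to 0.37 for Ppargc1a. The cause was not tested. No paired analysis was possible because the groups share no replicate number. Low or shared genes such as Ndufb4, Cox7c and Atp5l rest on few counts.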
